A study of Bos taurus with 8 samples.

Results

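The DNA repair and recombination genes measured here are the array probes whose annotated gene symbol belongs to the RAD, XRCC, FANC, ERCC, MSH, MLH or PMS families or to a short list of single repair genes such as ATM, PARP1, LIG1 and UNG. The rule took 86 of 43795 probes, which stand for 61 of 15229 gene symbols, and used no measured value. Of these 61 genes, 50 had a probe bright enough to be tested, through 57 probes. The other 11 are named at the end of the results.

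The comparison was between expanded bovine blastocysts of different origin. The in vitro embryos were matured, fertilized and cultured outside the animal and collected at 168 h after fertilization. The in vivo embryos came from Holstein females given FSH and a prostaglandin analogue and inseminated, and were flushed from the uterus 7.5 days after the first insemination (7 days in the sample characteristics), and both kinds shared 1 pool of semen. The labels give 400 mg FSH in 8 injections (first dose 60 mg, last 20 mg), 500 µg prostaglandin and inseminations at 12 and 24 h. They also give aspiration of follicles of 2 to 6 mm and ablation of follicles with a minimum of 8 mm. The labels call the in vitro embryos OPU embryos in 1 field and derive them from slaughterhouse ovaries in another, and they do not give the number of embryos per replicate. Oocyte source, hormone treatment, culture and any difference in hours of development go with the contrast and cannot be told apart from it. Each of 4 replicate pairs was hybridised on 2 arrays, each read in the dyes Cy5 and Cy3. Slide 58 carried the in vitro RNA in Cy5, and slide 61 had the dyes swapped. A blastocyst holds trophectoderm and inner cell mass, so a level here is a mean over both.

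Cells repair DNA by several routes. Base excision repair removes single damaged bases and seals the nick that is left, nucleotide excision repair cuts out bulky lesions, and mismatch repair corrects replication errors. Breaks through both strands are rejoined directly (end joining) or copied from the sister chromatid (homologous recombination), the Fanconi anaemia proteins deal with cross-links, and the kinases ATM and ATR signal damage to the cell cycle. Blastocyst cells divide fast, and several of these proteins also serve at normal replication forks.

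Values are log2 ratios, in vitro over in vivo, as the mean over 4 replicates ± SE from limma. A gene stands by its brightest tested probe, and it was called at an adjusted p under 0.05 (Benjamini-Hochberg over 24775 probes). Levels are log2 intensities after normalization, and since probes differ in how they bind, the level of 1 gene is not set against that of another. The arrays' median spot intensity was 87.3 to 187 in Cy5 and 110 to 267 in Cy3, and their number limits the precision. Replicate 2 stood apart: over all tested probes its ratios correlated with those of replicates 1, 3 and 4 at 0.39 to 0.46, and theirs with each other at 0.80 to 0.82.

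Of the 50 tested repair genes, 10 were called (20.0%), close to the 19.2% of all 10188 genes tested. They split into 4 higher in vitro (8.00%, beside 8.1% of all genes) and 6 lower (12.0%, beside 11.1%). The median log2 ratio of the 50 genes was -0.06, and that of all tested genes -0.01. The base excision and single-strand break repair genes LIG1, PARP1, UNG and APEX1 and the recombination genes RAD54L and XRCC3 were lower in vitro. The damage-signalling kinases ATM and ATR, the recombination gene XRCC2 and the transcription-coupled repair gene ERCC8 were higher. All 10 had the same sign in all 4 replicates and on both slides, and 9 had it on all 8 arrays. Of all 1953 called genes, 1872 had 1 sign on both slides, and 1689 had it on all 8 arrays. The call was made on these same values, so such agreement is no separate evidence. For these genes, as for all values here, fewer cells of a kind and less RNA per cell cannot be told apart.

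The counts moved with the fit. With the replicate number as a block over all 8 arrays, 8 repair genes were higher and 10 lower, where all genes gave 12.8% and 16.2%. That fit takes its degrees of freedom from 8 arrays, which hold only 4 replicate pairs. A pass in the replicate block is therefore given below as a description only. Without replicate 2 there were 11 higher and 13 lower of 50, where all genes gave 14.9% and 19.2%. Without replicate 1 there were 0 higher and 1 lower, where all genes gave 1.44% and 2.27%. Without replicate 3 there were 1 and 2, beside 1.93% and 2.53% of all genes, and without replicate 4 there were 0 and 1, beside 1.18% and 1.3%. Of the repair genes not called over 4 replicates, none passed without replicate 1, 3 or 4. For such genes, values without replicate 2, the replicate that stood apart, are a description and no evidence of a change. On slide 58 alone 10 were higher and 11 lower, and all genes gave 13.8% and 17.6%. On slide 61 alone 6 were higher and 11 lower, and all genes gave 12.8% and 15.3%. With median centring of each array in place of loess, 1 was higher and 5 were lower, where all genes gave 6.01% and 10.7%.

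**Figure D1:**
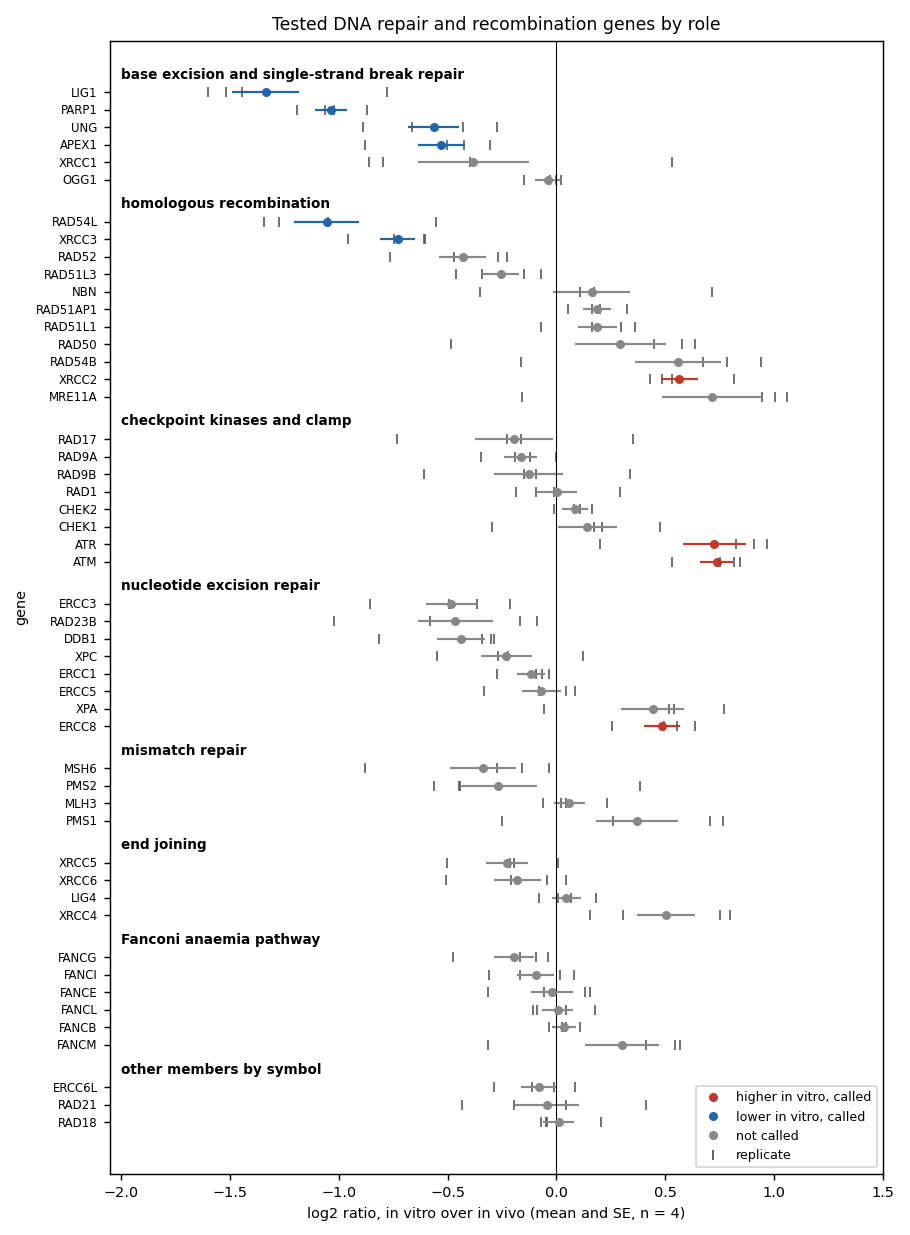
The 50 tested genes by role. Dots give the log2 ratio, in vitro over in vivo, with its SE (n = 4), ticks give the 4 replicates, and colour marks the called genes. In base excision repair all 6 dots lie below 0 and 4 are called, while the Fanconi anaemia genes lie between -0.19 and 0.30 with none called. Of all tested genes 8.1% were called higher and 11.1% lower.

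Base excision and single-strand break repair had 4 of 6 tested genes lower in vitro and 0 higher, with a median log2 ratio of -0.55. Over all genes 11.1% were lower and 8.1% higher. The routes hold few genes, and their counts were not tested against those shares. LIG1 encodes the ligase that joins Okazaki fragments and closes the nick at the end of base excision repair. Its level was 8.15, 8.77, 8.06 and 8.09 in vitro, against 9.75, 9.55, 9.58 and 9.53 in vivo, in replicates 1 to 4. The groups did not overlap, and replicate 2 had the smallest gap. LIG1 fell by 1.34 on the log2 scale (SE 0.15, adjusted p = 0.0102 by limma), which is 2.52-fold lower and the largest difference among the repair genes. Both slides gave it, at -1.32 and -1.35 on slides 58 and 61. Without replicate 1, 3 or 4 its adjusted p was 0.0533 to 0.0589.

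PARP1 encodes the enzyme that binds strand breaks and builds poly(ADP-ribose) chains there to recruit repair proteins. Its level was 13.90, 13.94, 14.11 and 14.12 in vitro, against 15.09, 14.81, 15.17 and 15.15 in vivo. The groups were apart in every replicate, and the ratio was -1.04 ± 0.07, or 2.05-fold lower (adjusted p = 0.00691 by limma). PARP1 was the 1 repair gene that kept its call under all 15 alternatives (adjusted p at most 0.0491). Its highest reading, 34771, was close to the brightest probe per channel (35630 to 40155), and its ratio was -0.81 on slide 58 and -1.26 on slide 61.

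UNG encodes the glycosylase that removes uracil from DNA. Its level was 11.71, 12.24, 11.76 and 11.32 in vitro, against 11.98, 12.67, 12.43 and 12.21 in vivo. The groups overlapped, because levels differed between replicates, but the in vitro level was the lower one within each pair. The ratio was -0.56 ± 0.12 (1.48-fold lower, adjusted p = 0.0361 by limma). A second UNG probe, dimmer, gave -0.02 (adjusted p = 0.887), so the call rests on the brighter probe.

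APEX1 encodes the main endonuclease that cuts at the abasic site a glycosylase leaves. Its level was 9.38, 9.00, 9.52 and 9.48 in vitro, against 9.88, 9.88, 9.82 and 9.91 in vivo. The groups did not overlap, and the ratio was -0.53 ± 0.11 (1.44-fold lower, adjusted p = 0.0362 by limma). The slides differed, at -0.89 on slide 58 and -0.16 on slide 61 (adjusted p = 0.376 on slide 61 alone), and 2 of the 8 arrays went the other way. UNG and APEX1 lost their calls without replicate 1, 3 or 4 (adjusted p 0.0697 to 0.140 and 0.0821 to 0.129), with median centring (0.0683 and 0.131) and with no filter on dim probes (0.0580 and 0.0571).

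The 2 remaining genes of this route did not pass. XRCC1, the scaffold protein of single-strand break repair, gave -0.40, -0.80 and -0.86 in replicates 1, 3 and 4 and 0.53 in replicate 2 (mean -0.38 ± 0.25, adjusted p = 0.417). Without replicate 2 it was -0.69 (adjusted p = 0.0176 by limma). OGG1, which removes oxidised guanine, gave -0.04 ± 0.06 (adjusted p = 0.760), and its second probe gave -0.11 (adjusted p = 0.325).

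Homologous recombination had 11 tested genes, with 1 higher and 2 lower in vitro and a median of 0.19. These are 9.09% and 18.2%, beside 8.1% and 11.1% of all genes. RAD54L encodes a motor protein that acts on DNA during strand invasion. Its level was 7.74, 8.49, 7.90 and 7.70 in vitro, against 8.79, 9.04, 9.25 and 8.98 in vivo. The groups did not overlap. RAD54L fell by 1.06 on the log2 scale (SE 0.15, 2.08-fold lower, adjusted p = 0.0144 by limma), with -0.75 on slide 58 and -1.37 on slide 61. Its paralog RAD54B gave 0.67, 0.94 and 0.78 in replicates 1, 3 and 4 and -0.16 in replicate 2. That made 0.56 ± 0.20 (adjusted p = 0.135). RAD54B passed without replicate 2, at 0.80 (adjusted p = 0.00592 by limma), and in the replicate block (0.0254), both given as a description only. The difference between the paralogs was not tested.

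XRCC2 and XRCC3 encode recombination proteins that sit in separate complexes. XRCC2 had levels of 10.29, 10.15, 10.06 and 10.62 in vitro, against 9.80, 9.62, 9.63 and 9.80 in vivo. It rose by 0.57 ± 0.08 on the log2 scale, or 1.48-fold (adjusted p = 0.0164 by limma). Its second, dimmer probe gave 0.20 (adjusted p = 0.222). XRCC3 had levels of 7.11, 7.37, 7.17 and 7.17 in vitro, against 7.72, 7.97, 8.13 and 7.91 in vivo. It went the other way, at -0.73 ± 0.08 or 1.66-fold lower (adjusted p = 0.00976 by limma), with -0.74 and -0.72 on slides 58 and 61. Neither gene's groups overlapped. Of the related genes, RAD51L1 (now RAD51B) gave 0.19 ± 0.09 and RAD51L3 (now RAD51D) -0.26 ± 0.09 (adjusted p = 0.254 and 0.117).

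Without replicate 1, 3 or 4, RAD54L had an adjusted p of 0.0647 to 0.0720 and XRCC2 of 0.0611 to 0.0721. XRCC3 lost its call without replicate 1 (0.0519) and without replicate 4 (0.0599). XRCC2 also lost it with median centring (0.0558).

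**Figure D2:**
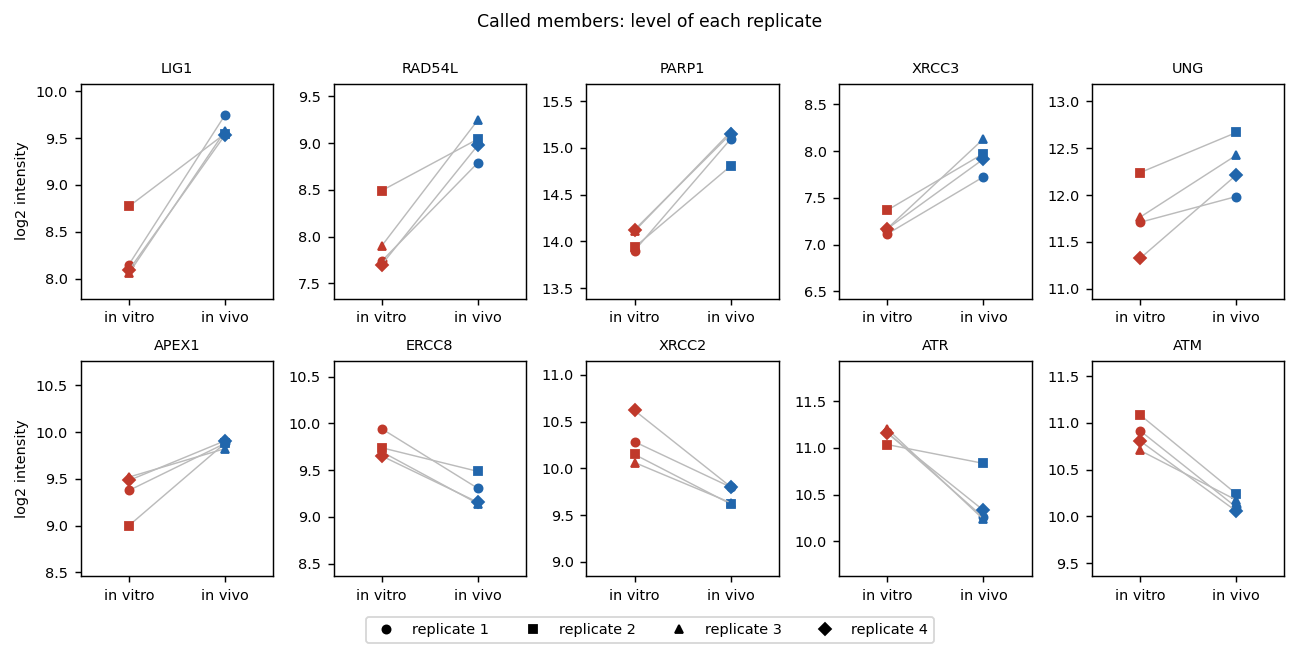
Level of the 10 called genes in each replicate, as log2 intensity, in vitro at left and in vivo at right of each panel. Lines join the pair hybridised together, and every panel spans the same log2 range. Every line of a gene slopes the same way, and UNG is the gene whose groups overlap.

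MRE11, RAD50 and NBN form the complex that senses double-strand breaks and starts their resection. MRE11A (now MRE11) had levels of 10.36, 9.32, 10.23 and 10.44 in vitro, against 9.30, 9.47, 9.23 and 9.49 in vivo. Replicate 2 had a ratio of -0.16 for it, and replicates 1, 3 and 4 had 1.06, 1.01 and 0.95. RAD50 gave 0.64, 0.58 and 0.45 in those replicates and -0.48 in replicate 2, and NBN gave 0.11, 0.72 and 0.17 against -0.35. For all 3 genes replicate 2 was below 0 and the other replicates were above it.

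Over 4 replicates none of the 3 passed, with MRE11A at 0.71 ± 0.23 (adjusted p = 0.110), RAD50 at 0.29 ± 0.21 (0.451) and NBN at 0.16 ± 0.18 (0.652). Without replicate 2, MRE11A was 1.00 and RAD50 0.55 (adjusted p = 0.00471 and 0.00774 by limma), and NBN 0.33 (0.163). In the replicate block MRE11A also passed, at an adjusted p of 0.0172. Such a sign in replicate 2, opposite to the other 3 replicates, was seen in 12 of the 50 repair genes, beside 23.6% of all genes tested. Whether replicate 2 reflects its embryos or its handling was not tested.

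**Figure D3:**
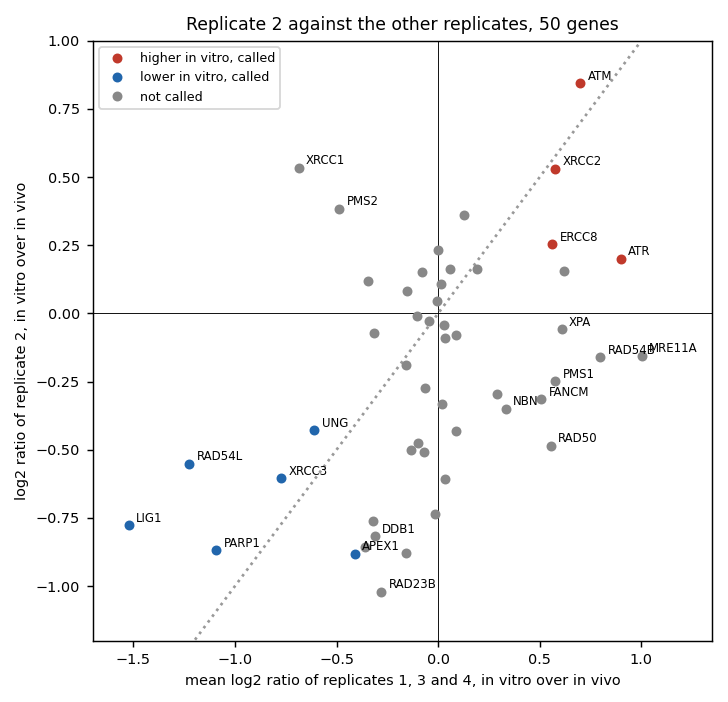
Log2 ratio of replicate 2 against the mean of replicates 1, 3 and 4 for the 50 genes, both in vitro over in vivo, with a dotted line at equality. The 10 called genes lie in the quadrants where both values have the same sign, which a call on these replicates favours. MRE11A, RAD54B, RAD50 and NBN lie at lower right, and XRCC1 and PMS2 at upper left.

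The remaining tested recombination genes were RAD52, which anneals single strands, at -0.43 ± 0.11 (adjusted p = 0.0577), and RAD51AP1, a recombination factor, at 0.19 ± 0.07 (adjusted p = 0.139). RAD52 was below 0 on all 8 arrays, and it passed in the replicate block (adjusted p = 0.0119).

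Among checkpoint kinases, the sliding clamp and its loader, 2 of 8 tested genes were higher in vitro and 0 lower, with a median of 0.04. All genes gave 8.1% higher and 11.1% lower. ATM and ATR encode related kinases, ATM answering to double-strand breaks and ATR to exposed single strands at stalled forks. ATM had levels of 10.91, 11.08, 10.70 and 10.81 in vitro, against 10.10, 10.24, 10.17 and 10.05 in vivo. The groups did not overlap. ATM rose by 0.74 ± 0.07 on the log2 scale, or 1.67-fold (adjusted p = 0.00876 by limma), with 1.07 on slide 58 and 0.40 on slide 61. ATR had levels of 11.17, 11.03, 11.20 and 11.16 in vitro, against 10.26, 10.83, 10.23 and 10.33 in vivo. The pairs were apart in every replicate and least so in replicate 2. ATR rose by 0.73 ± 0.15, or 1.65-fold (adjusted p = 0.0345 by limma).

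The kinases that ATM and ATR activate did not pass. CHEK1, the main target of ATR, gave 0.14 ± 0.13 (adjusted p = 0.591), and CHEK2, the main target of ATM, 0.09 ± 0.06 (adjusted p = 0.428). RAD1 and RAD9A, 2 parts of the sliding clamp, gave 0.00 ± 0.09 and -0.17 ± 0.07, the clamp's alternative subunit RAD9B gave -0.13 ± 0.16, and the clamp loader gene RAD17 gave -0.19 ± 0.18 (adjusted p 0.229 to 0.999). ATM lost its call without replicate 1 (0.0536) and without replicate 4 (0.0558). ATR lost it without replicate 1, 3 or 4 (0.131 to 0.137), with median centring (0.118) and with no filter on dim probes (0.0589).

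Nucleotide excision repair had 1 of 8 tested genes higher in vitro and 0 lower, with a median of -0.17. The share higher was 12.5%, beside 8.1% of all genes, which also had 11.1% lower. ERCC8, or CSA, is part of the ubiquitin ligase that acts where RNA polymerase stalls at a lesion. Its level was 9.94, 9.74, 9.70 and 9.65 in vitro, against 9.31, 9.49, 9.14 and 9.16 in vivo. The groups did not overlap, and ERCC8 rose by 0.48 ± 0.08, or 1.40-fold (adjusted p = 0.0219 by limma). The call was lost without replicate 1, 3 or 4 (0.0949 to 0.107), on slide 61 alone (0.0582) and with median centring (0.160).

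Of the other 7 genes of this route, 6 had ratios below 0 and none passed. Among these 6, ERCC3 and ERCC5 were tested only through their detection in vivo, which favours a ratio below 0. Both also enter the median of the route. ERCC3, a helicase of the TFIIH complex, gave -0.37, -0.86, -0.21 and -0.49 in replicates 1 to 4 (mean -0.48 ± 0.12, adjusted p = 0.0548). Its signal was above background on 5 of 8 arrays in vitro, against 8 of 8 in vivo, so it was tested only through the kind in which it was brighter, and it had no value when detection in both kinds was required. Its adjusted p was 0.00798 in the replicate block, and these values are given as a description only. DDB1, the adaptor that carries damage sensors to a CUL4 ubiquitin ligase, gave -0.44 ± 0.11 (adjusted p = 0.0599), and RAD23B, the partner of XPC, -0.46 ± 0.17 (0.153). In the replicate block both passed (0.0408 and 0.0372). For both, replicate 2 was the lowest, at -0.82 for DDB1 and -1.02 for RAD23B. Without replicate 2, DDB1 was -0.31 (0.0141) and RAD23B -0.28 (0.155). XPC, which finds the distorted helix, gave -0.23 ± 0.12 and XPA, which checks the lesion, 0.44 ± 0.15 (0.283 and 0.115). XPA passed in the replicate block (0.0223), and without replicate 2 XPA was 0.61 and XPC -0.35 (0.00935 and 0.0453). The nuclease genes ERCC1 and ERCC5 gave -0.12 ± 0.07 and -0.07 ± 0.09 (0.325 and 0.708).

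Mismatch repair, end joining and the Fanconi anaemia pathway had 0 of 14 tested genes called, beside 19.2% of all genes. An unadjusted p under 0.05 was seen for 1 gene, beside 3617 of 10188 over all genes. In the replicate block 1 of the 14 was called, the same gene, XRCC4, where all genes gave 12.8% higher and 16.2% lower. In mismatch repair the ratios ran from -0.34 ± 0.15 for MSH6, whose protein helps to bind mismatches, to 0.37 ± 0.19 for PMS1 (adjusted p = 0.229 and 0.282). PMS2, which encodes a mismatch repair nuclease, gave -0.27 ± 0.18 and MLH3 0.06 ± 0.07. In PMS2 the values were -0.44, -0.45 and -0.56 in replicates 1, 3 and 4 and 0.38 in replicate 2. Without replicate 2, PMS2 (-0.49) and PMS1 (0.58) passed, at adjusted p of 0.00784 and 0.0315 by limma.

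In end joining, XRCC4, which holds ligase IV at the break, gave 0.75, 0.16, 0.80 and 0.31 in replicates 1 to 4 (mean 0.50 ± 0.13, adjusted p = 0.0687). XRCC4 was detected on 8 of 8 arrays in vitro, against 6 of 8 in vivo, so it too was tested only through the kind in which it was brighter. It had no value when detection in both kinds was required. Its adjusted p was 0.0112 in the replicate block, given as a description only. The Ku genes XRCC5 and XRCC6, whose proteins cap broken ends together, gave -0.23 ± 0.10 and -0.18 ± 0.11 (adjusted p = 0.199 and 0.358), and the ligase IV gene LIG4 gave 0.04 ± 0.07 (0.759).

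The Fanconi anaemia genes had the smallest ratios of these 3 routes, with a median absolute log2 ratio of 0.07, beside 0.19 over all genes. FANCM, which anchors the core complex to DNA, had the highest ratio, 0.30 ± 0.17 (adjusted p = 0.326), and FANCG of the core complex the lowest, -0.19 ± 0.09 (0.241). FANCM was -0.31 in replicate 2, and it passed without that replicate, at 0.51 (0.00817 by limma). FANCI, a target of the complex's ubiquitin ligase, gave -0.09 ± 0.09. FANCB, FANCE and FANCL, the last being that ligase, gave 0.04 ± 0.06, -0.02 ± 0.10 and 0.01 ± 0.07. FANCL had a mean near 0 but opposite slides, at -0.76 on slide 58 and 0.78 on slide 61. RAD9A did the same, at -0.96 and 0.63.

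Over the 50 repair genes, 17 had opposite signs on the 2 slides, beside 41.9% of all genes, and none of the 10 called genes was among them. A call on the mean of the slides favours such agreement. A slide effect and a dye effect cannot be told apart here, because each slide had 1 orientation. The levels of the 4 in vitro and the 4 in vivo samples did not overlap in 13 repair genes, beside 23.1% of all genes. These were 9 called genes and ERCC3, RAD23B, RAD52 and RAD9A. ERCC3 was tested only through its detection in vivo, which favours such a gap. RAD9A had opposite signs on the slides (-0.96 and 0.63).

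**Figure D4:**
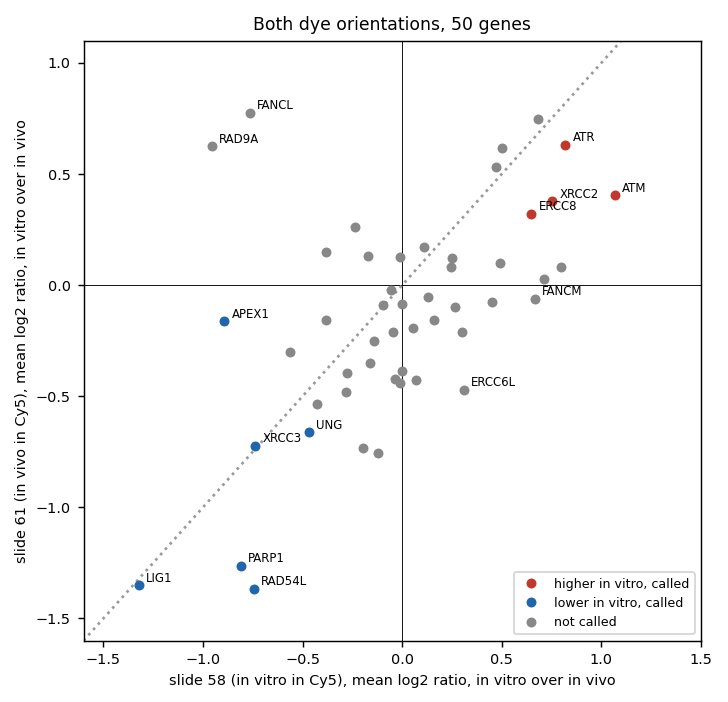
Mean log2 ratio, in vitro over in vivo, on slide 58 (in vitro in Cy5) against slide 61 (in vivo in Cy5) for the 50 genes, 4 arrays per slide, with a dotted line at equality. The called genes have the same sign on both slides, which a call on these arrays favours. FANCL and RAD9A lie at upper left, -0.76 and -0.96 on slide 58 and above 0 on slide 61.

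Of the members whose symbols belong to no single route, RAD21 of the cohesin ring gave -0.04 ± 0.15, RAD18, a ubiquitin ligase of damage bypass, 0.01 ± 0.07, and ERCC6L, a DNA translocase of mitosis, -0.08 ± 0.08. None passed (adjusted p 0.606 to 0.953).

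A wider list of repair genes outside the symbol rule was set beside them. Of 89 tested, 8 were higher in vitro and 5 lower, with a median of -0.0046. Their share called was 14.6%, beside 19.2% of all genes, and that difference was not tested. The counts were 17 and 13 in the replicate block and 17 and 16 without replicate 2. In base excision the flap endonuclease gene FEN1 fell by 0.59 ± 0.07 (adjusted p = 0.0112 by limma) and the glycosylase gene NEIL2 rose by 0.47 ± 0.09 (0.0317), 2 of 13 tested genes. In recombination and the Fanconi pathway 3 of 23 were called. DNA2, a nuclease that resects broken ends, rose by 0.70 ± 0.06 (0.00701) and RMI2 of the BLM complex by 0.59 ± 0.07 (0.0105). EME1, the partner of the MUS81 nuclease, gave -0.58 ± 0.07 (0.0102), but -2.16 on slide 58 and 0.99 on slide 61. Opposite slide values were also seen for MAD2L2 of lesion bypass, the 1 call among 12 genes, at -0.83 ± 0.16 (0.0300), with -2.25 and 0.58 on the slides. Neither value has a direction that both slides share.

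In nucleotide excision 4 of 16 further genes were called. All genes gave 19.2%, and the shares of these short lists were not tested against it. CETN2, a partner of XPC, rose by 0.67 ± 0.10 (adjusted p = 0.0160 by limma), RPA2 of the single-strand binding complex by 0.39 ± 0.06 (0.0212) and GTF2H2 of TFIIH by 0.39 ± 0.09 (0.0445), and the cullin gene CUL4A fell by 0.42 ± 0.07 (0.0229). In damage signalling 2 of 19 were called. The ubiquitin ligase gene RNF8 rose by 0.35 ± 0.06 (0.0231) and the histone gene H2AFX (now H2AX), whose product marks breaks, fell by 0.95 ± 0.20 (0.0380), with -1.42 and -0.48 on slides 58 and 61. In end joining the 1 call among 6 was NHEJ1, which joins XRCC4 at the break, at 0.50 ± 0.10 (0.0346), with 0.17 and 0.82 on slides 58 and 61. The median of the RNF8 probes gave 0.08 (0.433). Each of the 13 calls was lost without at least 1 of replicates 1, 3 and 4, and that of DNA2 without replicate 4 alone (0.0515). With median centring GTF2H2 (0.261), RPA2 (0.0642), CUL4A (0.0661), NEIL2 (0.0654), RNF8 (0.131) and MAD2L2 (0.0779) lost their calls. GTF2H2 also lost it with no background correction (0.0555), with no filter on dim probes (0.0619), in the deposited log2 ratios (0.0512) and on slide 61 alone (0.0528). On slide 61 alone CUL4A (0.137), NEIL2 (0.110), H2AFX (0.136) and RNF8 (0.0642) lost their calls too. NHEJ1 lost its call on slide 58 alone (0.276). With no filter on dim probes MAD2L2 (0.0527), H2AFX (0.0680) and NHEJ1 (0.0527) lost theirs.

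**Figure D5:**
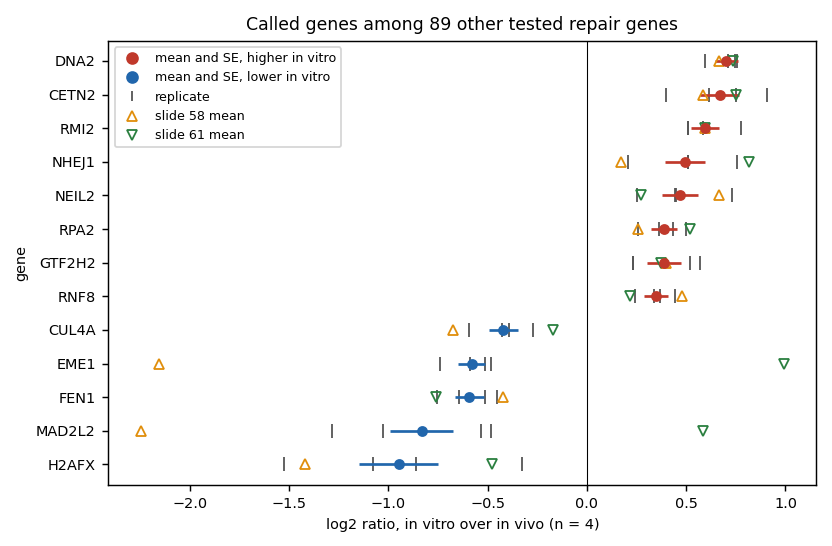
The 13 called genes among 89 further repair genes. Dots give the log2 ratio, in vitro over in vivo, with its SE (n = 4), ticks give replicates and triangles the mean of each slide. EME1 and MAD2L2 have slide means on both sides of 0 (-2.16 and 0.99, -2.25 and 0.58), while the other 11 genes have both slide means on 1 side.

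The embryo's own lineage markers were read beside these values. Of 10 trophectoderm markers 4 were lower in vitro and 1 higher, and their summed level was 15.70 to 16.27 in vitro, against 16.47 to 16.66 in vivo. Of 7 inner cell mass markers 1 was lower (NANOG) and 0 were higher, with summed levels of 14.37 to 14.56 in vitro, against 14.56 to 14.94 in vivo. KRT8, KRT18, POU5F1 and NANOG were detected on all arrays of both kinds. Among markers of other cells, 0 of 5 tested for cumulus and granulosa, 0 of 4 for blood and 0 of 5 for oocytes were called. Their summed levels were 9.88 to 9.97, 9.85 to 10.29 and 9.90 to 9.95 in vitro, against 9.95 to 10.09, 9.87 to 10.19 and 9.83 to 9.89 in vivo. In vitro, 4 of 8 oocyte, 4 of 7 blood and 2 of 8 cumulus and granulosa markers were detected on all 8 arrays. In vivo these were 4, 4 and 5. The oocyte marker GDF9 was above background on no array, LYZ of blood and ODF1 of sperm on none in vitro, and AMH of granulosa on none in vivo. MUC1, 1 of 2 tested markers of oviduct and uterus, was lower in vitro, with summed levels of 9.27 to 9.46 in vitro, against 9.38 to 9.53 in vivo. TNP1, the 1 tested sperm marker, was lower in vitro too, with summed levels of 9.29 to 9.48 in vitro, against 9.85 to 10.13 in vivo. The part of these markers in the repair gene values was not tested.

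The 11 genes not tested had no probe detected on all arrays of either kind of embryo. RAD51C, MSH4, DDB2, ERCC2, ERCC4 and RAD21L1 were detected on at most 1 of 8 arrays per kind. The others, BRCA1, LIG3, FANCA, FANCF and MSH5, were detected on 2 to 7 of 8 per kind. Their probes had only a bound, and no ratio is given. Some genes of these families were not analysed here.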

How the data were processed

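Labels and files gave 8 arrays, 2 dyes each, of amplified RNA in Cy3 and Cy5. The authors deposited raw spot intensity and local background in both channels, not corrected per the file headers, and a table of processed log2 ratios by a method not given in the sources used here. Set against log2 Cy5 over Cy3 for 8408 bright probes, those deposited log2 ratios gave r of 0.958 to 0.981 on slide 58 and -0.995 to -0.984 on slide 61, so they read in vitro over in vivo; column medians were -0.00385 to 0.00131, and the centring method stays unknown.

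Each spot mean was corrected for its local background median by normexp (offset 50), then loess-normalized within arrays, control spots at weight 0 (limma 3.58.1, R 4.3.3). Levels came from Aquantile scaling, which leaves ratios as they are. A probe was detected when above the 95th percentile of 153 negative controls of its channel. Testing required detection on every one of the 8 arrays for in vitro RNA, in vivo RNA or both. Numbers 1 to 4 in the labels pair the arrays: deviations from the slide means correlated at 0.703 to 0.894 within a number, and at most 0.149 between numbers. The 2 arrays of a number were averaged, which cancels a dye effect, and limma's lmFit and eBayes were run on the intercept (n = 4, two-sided, prior df 2.01). The labels name biological replicates.

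Symbols came from the platform annotation (21790 of 43795 probes). Of the 61 member symbols 58 are current in ARS-UCD2.0 and 3 are synonyms; no build is named for the array, so no coordinates are given. Members, gene lists and tests were chosen with earlier results of these data known. Every member may be named, and up to 4 called genes per further list. The fit was tested on simulated data with far fewer changed probes than were called here. There it recovered 68% of log2 ratios of 1, and 5.62% of the calls were false. A gene not called is therefore not shown to be unchanged. Alternatives covered background, normalization, filter, probe choice, deposited values, slide, replicate block and left-out replicates.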

Additional observations from a re-analysis of the deposited data

Results flagged for a closer look

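Among the 63 genes examined, 5 had 1 replicate far from the other 3, and 4 of these 5 concerned replicate 2; chance alone flags about 1 in 20 groups. DDB1 was -0.82 in replicate 2 and -0.34 to -0.29 in the others. MRE11A was -0.16 in replicate 2 and 0.95 to 1.06 in the others, and RAD50 was -0.48 against 0.45 to 0.64. PMS2 was 0.38 in replicate 2 and -0.56 to -0.44 in the others. RAD18 was 0.21 in replicate 3 and -0.07 to -0.04 in the others. None of the 5 was called over 4 replicates.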

How the results depend on the processing

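Under 15 alternatives no called repair gene of the symbol rule changed sign, and the median log2 ratio of the list stayed within -0.09 to -0.01. With the replicate number as a block and a dye term (consensus correlation 0.834), 8 member genes were higher and 10 lower, and 17 and 13 of the further repair genes; that fit takes its degrees of freedom from 8 arrays. On slide 58 alone the counts were 10 and 11, and 18 and 11 of the further genes; on slide 61 alone they were 6 and 11, and 9 and 9 of the further genes. The shares of all genes under these settings stand beside the members in the results. Leaving out 1 replicate gave 0 to 11 members higher, 1 to 13 lower, and 0 to 17 and 0 to 16 of the further genes, the highest without replicate 2. Median centring left 1 member and 4 further genes higher. Adjusting over genes only, chosen after seeing the data, gave 9 further genes lower, and RAD52, DDB1 and ERCC3 then passed. Single-slide values went against the mean in EME1 (0.99) and MAD2L2 (0.58) on slide 61, FANCL (-0.76) on slide 58 and RAD9A (0.63) on slide 61. UNG was -0.29 (adjusted p = 0.0557 by limma) as the median of its probes. Signal near background limits XRCC4, detected in vivo on 6 of 8 arrays, and ERCC3, detected in vitro on 5 of 8. It also limits RAD9B and MLH3, each detected in vitro on 6 of 8, and ERCC5, on 7 of 8, all 3 tested through their in vivo detection. Some members detected on all arrays were dim as well. Their highest reading was 240 for XRCC5, 286 for FANCB, 292 for OGG1, 298 for CHEK2 and 309 for LIG4, beside 246 for XRCC4. Their small ratios carry the same limit. Requiring detection in both kinds left 45 members tested.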
